A study of Mus musculus with 7 samples.

Results

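Extracellular ATP and adenosine act on T cells through a short chain of surface enzymes and receptors, and 7 genes of that chain, Nt5e, Entpd1, P2rx7, P2rx4, Adora2a, Cd38 and Dpp4, were read here in CD4+ cells of mouse spleen. The members were taken by gene symbol, and all 7 were found among the 19589 genes of the expression table. The RT group holds 3 libraries (RT1 to RT3) from mice that lack Tet2, which encodes a dioxygenase that oxidises methylated cytosine in DNA, and that carry G17V RHOA, a mutant small GTPase of angioimmunoblastic T cell lymphoma. The WT group holds 4 libraries (WT1 to WT4) from wild-type mice. All mice were C57BL/6, the CD4+ cells were sorted by flow cytometry, and the series describes each library as a separate mouse. The chi-square per degree of freedom between libraries was 2.98 over 2162 genes for RT2 and RT3 and 1.17 over 2342 genes for WT3 and WT4. The WT pair was the closer but still differed beyond sampling noise, and it was kept as 2 samples. The promoter that drives the RHOA transgene, the part of Tet2 that is deleted and the ages of the mice are not stated in the labels or the series text used here.

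As background, ATP leaves stressed, activated or dying cells and opens P2X channels on the T cell surface. CD39 (Entpd1) hydrolyses ATP and ADP to AMP, and CD73 (Nt5e) turns AMP into adenosine. Adenosine then acts on the receptor encoded by Adora2a, which raises cAMP and damps T cell receptor signals. CD38 consumes NAD outside the cell, and CD26 (Dpp4) is a dipeptidyl peptidase that trims chemokines and, in human, also holds adenosine deaminase at the surface. In mouse lymphoid tissue CD73 is known as a surface protein of regulatory and follicular helper T cells, and P2X7 is known to limit follicular helper T cells.

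Values were RPKM, in which the reads of a gene are divided by its length and by the read total of the library. The libraries fell into a deep and a shallow set, each with both genotypes. No read counts were used as deposited. Totals and reads were worked back from the steps of the RPKM values, which holds if the authors counted whole reads and divided them by each library's own total. The read total behind the values was 21800352 in RT1, against 18566233 in WT1 and 20033254 in WT2, and it was 105763 and 121659 in RT2 and RT3, against 118950 and 121617 in WT3 and WT4. For a 2-kb gene, 1 read equalled 0.0229 RPKM in RT1 and 4.73 RPKM in RT2, so a shallow value of a few RPKM rests on a few reads. RPKM values summed over genes to 133044 to 152578 in the deep libraries and to 326187 to 366023 in the shallow ones, so levels are best set side by side within a set. Where RPM is given, reads were divided by the sum of reads in genes and not by length. Intervals given for reads cover counting error only. Cd4 stood at 122 to 463 RPKM in RT and 127 to 256 RPKM in WT. Cd8a was listed at 0 in the 3 RT libraries and at 0.645 to 4.52 RPKM in WT. Cd8b1 overlapped between the groups, at 1.18, 0 and 5.54 RPKM in RT, against 1.74, 7.30, 0 and 5.54 RPKM in WT.

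In short, Nt5e was the highest of the 7 genes in every library and was 2.37 to 2.87 times as high in RT as in WT in both sets. Adora2a was also higher in RT in both sets, on few reads in the shallow one. Dpp4 was lower in RT1 than in both deep WT libraries, and the shallow libraries did not separate. Entpd1 and Cd38 were higher in RT1 than in WT1 and WT2, with the opposite order of the group means in the shallow libraries. P2rx7 overlapped between the groups, and P2rx4 was higher in RT mainly through RT1. The RefSeq promoter table matched 6 of the 7 members, all but Adora2a. Shown next are the windows of Nt5e and P2rx4, which together with Adora2a had every RT library above every WT library in RPKM, and of Dpp4, the member called lower. The windows are on GRCm38.p6, a release of the assembly behind mm10, and run from 250 bases before to 50 bases after the start that RefSeq gives. They are printed 5′ to 3′ on the strand of the gene, and the capitals mark CG dinucleotides. The Nt5e window is chr9:88327359-88327658 (plus strand), the P2rx4 window chr5:122707294-122707593 (plus strand) and the Dpp4 window chr2:62412182-62412481 (minus strand). The start that RefSeq gives for Nt5e lies inside the GENCODE span of the gene given further on.
Nt5e: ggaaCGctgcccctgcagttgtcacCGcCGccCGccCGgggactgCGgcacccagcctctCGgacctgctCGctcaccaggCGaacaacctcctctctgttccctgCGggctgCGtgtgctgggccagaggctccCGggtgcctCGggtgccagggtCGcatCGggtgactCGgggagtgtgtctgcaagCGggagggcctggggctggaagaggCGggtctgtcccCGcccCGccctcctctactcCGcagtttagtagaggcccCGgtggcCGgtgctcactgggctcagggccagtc
P2rx4: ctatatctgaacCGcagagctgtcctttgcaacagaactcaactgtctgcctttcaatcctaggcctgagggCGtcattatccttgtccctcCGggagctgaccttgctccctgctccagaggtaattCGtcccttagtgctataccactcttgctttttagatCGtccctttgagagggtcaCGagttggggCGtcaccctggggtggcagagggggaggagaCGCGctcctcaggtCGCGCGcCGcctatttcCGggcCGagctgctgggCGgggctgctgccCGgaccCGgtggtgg
Dpp4: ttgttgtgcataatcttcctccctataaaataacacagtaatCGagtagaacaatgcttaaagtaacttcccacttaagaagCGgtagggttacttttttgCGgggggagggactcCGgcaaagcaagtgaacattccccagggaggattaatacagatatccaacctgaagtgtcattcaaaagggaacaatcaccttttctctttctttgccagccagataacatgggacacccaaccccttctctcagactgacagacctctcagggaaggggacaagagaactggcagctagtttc

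The Nt5e window held 23 CG dinucleotides with a GC content of 71.0%, the P2rx4 window held 18 with 60.3%, and the Dpp4 window held 4 with 45.3%. Over the 32851 windows of that length in the table the median was 7 CG dinucleotides, with a 10th to 90th percentile range of 1 to 31. A GC box, searched as GGGCGG on both strands, occurred 4 times in the Nt5e window and 1 time in the P2rx4 window, and 35.7% of all windows hold at least 1. The Dpp4 window held 1 TATAAA, which 13.6% of all windows hold on either strand. The core of the cAMP response element, TGACG on both strands, occurred 2 times in the P2rx4 window, against 20.8% of all windows with at least 1. The full element TGACGTCA, which contains that core, was found in none of the 8 windows of the 6 members that matched the table, and 1.79% of all windows hold it. These matches describe letters and not binding.

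**Figure D1:**
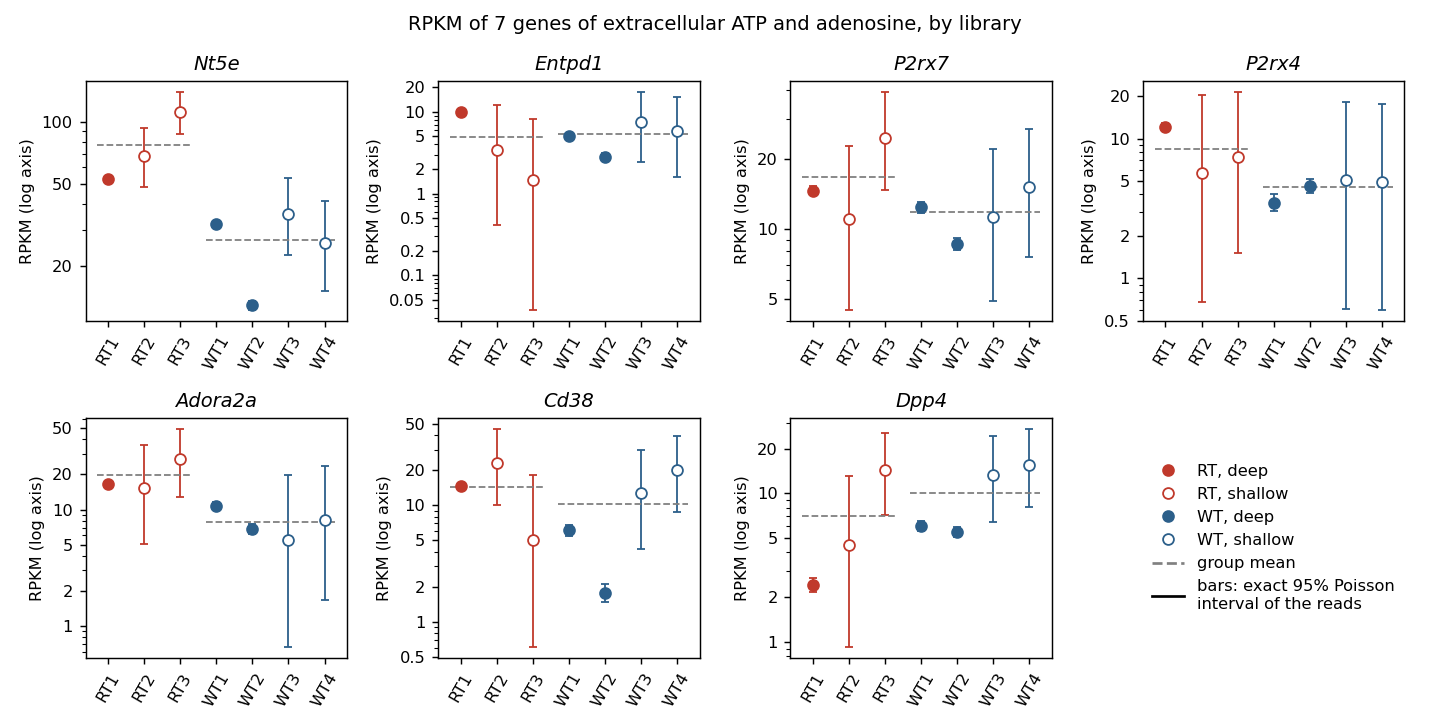
RPKM on a log axis for each of the 7 genes in RT1 to RT3 and WT1 to WT4; filled points are deep and open points shallow libraries, dashed lines are group means, and bars are exact 95% Poisson intervals of the reads behind each value. Nt5e, P2rx4 and Adora2a lie higher in every RT library than in every WT library. The bars of the shallow libraries are wide, and within each of these libraries that of Nt5e is the shortest.

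Of the 7 genes, 3 had every RT library above every WT library in RPKM, namely Nt5e, P2rx4 and Adora2a, and none had every RT library below. Among the 9605 genes that reached 1 RPKM in 3 or more libraries, 4.47% lay wholly above and 4.57% wholly below. A pair of tests was run, each fitted over all genes with limma and with terms for genotype and library set. The RPKM test, on log2(RPKM + 1), called 0 of the 7 genes, against 0.271% of the 9605 genes (21 higher, 0.219%, and 5 lower, 0.0521%). Its unadjusted p was under 0.05 for 676 higher and 573 lower genes, and Nt5e and Adora2a were the members among the higher ones. The recovered-read test used limma voom on the whole reads worked back from the RPKM values, which gives more weight to values with more reads behind them. It called 17.4% of 5869 genes (560 higher, 9.54%, and 462 lower, 7.87%) and, of the 6 members with enough reads, 3 higher (Nt5e, Entpd1 and Adora2a) and 1 lower (Dpp4). RT1 is the sole RT library of the deep set. With it left out, the recovered-read test called 0 of all genes, with an unadjusted p under 0.05 for 158 higher and 307 lower genes. A call lost in that fit is thus lost for every gene and does not single out a member. The RPKM test without RT1 called more genes than with it, 168 higher and 278 lower. In the recovered-read test the shallow libraries fitted alone called 195 higher and 271 lower, Nt5e among the higher ones.

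Entpd1 encodes CD39, the enzyme at the head of the adenosine path (ENSMUSG00000048120, chromosome 19, 40612366 to 40741602, plus strand, mm10). Its RPKM values were 10.1, 3.39 and 1.47 in RT1 to RT3, against 5.13, 2.81, 7.53 and 5.89 in WT1 to WT4. RT1 was the highest of all 7 libraries and RT3 the lowest, so the groups overlapped. The means were 4.99 ± 4.53 RPKM in RT (SD, n = 3) and 5.34 ± 1.96 RPKM in WT (SD, n = 4). The reads behind them were 1228 in RT1, against 531 in WT1 and 314 in WT2, and 2 and 1 in RT2 and RT3, against 5 and 4 in WT3 and WT4. Deep and shallow libraries thus ran in opposite directions, with a pooled ratio of RPM, RT over WT, of 2.55 in the deep set (exact 95% interval 2.33 to 2.78) and of 0.342 in the shallow set (0.0596 to 1.37). The RPKM test gave a log2 fold change of -0.25 ± 0.60 (SE, limma adjusted p = 0.884). The recovered-read test called Entpd1 higher in RT, at 1.30 ± 0.37 (SE, limma adjusted p = 0.0464). Without RT1, where no gene was called, the estimate was -1.34. The call was also lost without RT2, RT3, WT3 or WT4, while without WT2 it held at 0.82. With genes of 10 or more reads over all libraries kept it stood at an adjusted p of 0.106, with WT3 and WT4 summed at 0.0706 and without the library set term at 0.0862. Quality weights for the libraries gave 0.28 (limma adjusted p = 0.914) and limma-trend gave -0.24 (limma adjusted p = 0.880). The difference between the deep and the shallow estimate was 2.74 ± 1.55 on the log2 scale (SE, limma adjusted p = 0.718), in a test chosen after the data were seen.

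Over the 7 libraries, RT1, WT1, WT3 and WT4 were the 4 highest both for Entpd1 and for a list of myeloid and dendritic cell markers, and RT1 was first in both. The 11 measured genes of that list summed to 2358, 271 and 434 RPM in RT1 to RT3, against 817, 532, 1501 and 1453 in WT1 to WT4. In the recovered-read test 3 of the 7 genes tested were higher in RT (Csf1r, Cd68 and Adgre1) and 2 were lower (Flt3 and Siglech, of dendritic cells), so the list did not run one way. Over all genes that test called 9.54% higher and 7.87% lower. Csf1r, the macrophage colony-stimulating factor receptor, stood at 133, 13.5 and 18.5 RPKM in RT, against 37.8, 32.9, 65.4 and 70.7 RPKM in WT. Cd68, a macrophage lysosomal protein, stood at 41.3 RPKM in RT1 and was listed at 0 in RT2 and RT3, against 9.21 to 65.4 RPKM in WT. Siglech, of plasmacytoid dendritic cells, was listed at 0 in the 3 RT libraries, against 1.66, 1.37, 24.9 and 12.2 RPKM in WT, and Cd14, of monocytes, stood at 17.3, 12.03 and 31.4 RPKM in RT, against 4.01 and 2.35 RPKM in WT1 and WT2 and 0 in WT3 and WT4. The B cell list of 10 genes summed to 399, 156 and 235 RPM in RT1 to RT3, against 305, 231, 1606 and 1835 in WT1 to WT4, so RT1, WT1, WT3 and WT4 were highest there too. CD39 is also a protein of macrophages, dendritic cells and B cells, and the part of those cells in the Entpd1 values was not tested. In bulk RNA, fewer cells of a type and less RNA per cell cannot be told apart.

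Nt5e encodes CD73, which makes adenosine from AMP (ENSMUSG00000032420, chromosome 9, 88327197 to 88372092, plus strand). Its RPKM values were 52.9, 68.1 and 111 in RT1 to RT3, against 32.0, 12.9, 35.7 and 25.8 in WT1 to WT4. Every RT library lay above every WT library, and the lowest RT value, in RT1, was above the highest WT value, in WT3. The means were 77.3 ± 30.04 RPKM in RT (SD, n = 3) and 26.6 ± 10.02 RPKM in WT (SD, n = 4). The reads were 6244 in RT1, against 3212 in WT1 and 1396 in WT2, and 39 and 73 in RT2 and RT3, against 23 and 17 in WT3 and WT4. Nt5e was the only member with more than 18 reads in any shallow library, and its deep and shallow ratios were alike. The pooled ratio was 2.37 in the deep set (exact 95% interval 2.29 to 2.47) and 2.87 in the shallow set (1.99 to 4.23). WT1 and WT2 differed from each other by 2.48 times, so the spread between wild-type mice was as large as the deep ratio.

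The recovered-read test called Nt5e higher in RT, at a log2 fold change of 1.39 ± 0.39 (SE, limma adjusted p = 0.0440), which was close to the threshold. The RPKM test gave 1.43 ± 0.35 (SE, limma adjusted p = 0.157, unadjusted p = 0.00439) and did not call it. Nor did the RPKM test call Nt5e in the shallow libraries alone, at 1.49 ± 0.35 (SE, limma adjusted p = 0.212). In the recovered-read test the shallow libraries fitted alone gave 1.47 ± 0.34 (SE, limma adjusted p = 0.00167), a call that uses neither RT1 nor the deep WT libraries. The deep libraries alone gave 1.38 ± 0.46 (SE, limma adjusted p = 0.106). Nt5e lost its call in the joint fit without RT1 (1.47) and without RT2, RT3, WT3 or WT4, and kept it at 0.79 without WT2, the wild-type library with the lowest Nt5e. Its adjusted p also rose above 0.05, to 0.0566 to 0.0980, with 10 or more reads over all libraries or 30 or more shallow reads asked for, with limma-trend, with quality weights, without the library set term and with WT3 and WT4 summed. The estimate was above 0 in each of these fits. A list of 8 T helper genes summed to 8732 and 7394 RPM in RT2 and RT3, against 4741 and 4425 in WT3 and WT4. In the deep set that list stood at 3513 RPM in RT1, against 3987 and 3912 in WT1 and WT2. Over the 7 libraries the recovered-read test called 0 of its 8 genes higher and 1 lower. The part of T cell content in the shallow ratios of Nt5e and Adora2a was not tested.

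The libraries high in Nt5e were also high in the summed markers of follicular helper T cells and of regulatory T cells. The 3 genes most like it over the 7 libraries, among 832 genes and by Pearson r of log2 RPM centred within each set, were Icos at 0.985, Izumo1r at 0.984 and Ptpn22 at 0.981. Icos is a costimulatory receptor of follicular helper T cells, and Izumo1r encodes folate receptor 4, a surface protein of regulatory T cells. The 7 libraries share 2 depths and 2 genotypes, so these coefficients are a description. Icos stood at 48.7, 130 and 194 RPKM in RT, against 26.2, 13.3, 58.8 and 36.0 RPKM in WT. The 8 genes of the follicular helper list summed to 2239, 2386 and 3507 RPM in RT1 to RT3, against 848, 414, 726 and 736 in WT1 to WT4. All RT libraries exceeded all WT libraries there, and 7 of the 8 genes were called higher in the recovered-read test, against 9.54% of all genes. The RPKM test called 1 of the 8 higher, against 0.219% of all genes. The 7 genes of the regulatory T cell list summed to 1134, 1886 and 2395 RPM in RT, against 1056, 633, 717 and 857 in WT. All RT libraries exceeded all WT libraries there too, RT1 by little. In the recovered-read test 1 of the 5 genes tested was called higher and 1 lower, and the RPKM test called 0 of 7. Ctla4 was the gene called higher (log2 fold change 1.53 ± 0.25, SE, limma adjusted p = 0.00541). Il2ra was the gene called lower (-1.84 ± 0.22, SE, limma adjusted p = 0.00142). Foxp3, the defining factor of those cells, stood at 17.4, 64.0 and 179 RPKM in RT, against 19.4, 14.3, 31.6 and 26.8 RPKM in WT. It was not called in the recovered-read test (0.33 ± 0.35, SE, limma adjusted p = 0.556). The naive T cell list of 8 genes summed to 1527 to 2657 RPM in RT and to 3631 to 4842 in WT. Of its 8 genes 6 were called lower in the recovered-read test, against 7.87% of all genes. The RPKM test called 1 of the 8 lower, against 0.0521% of all genes. The part of these cell states in the levels of Nt5e and the other members was not tested.

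**Figure D2:**
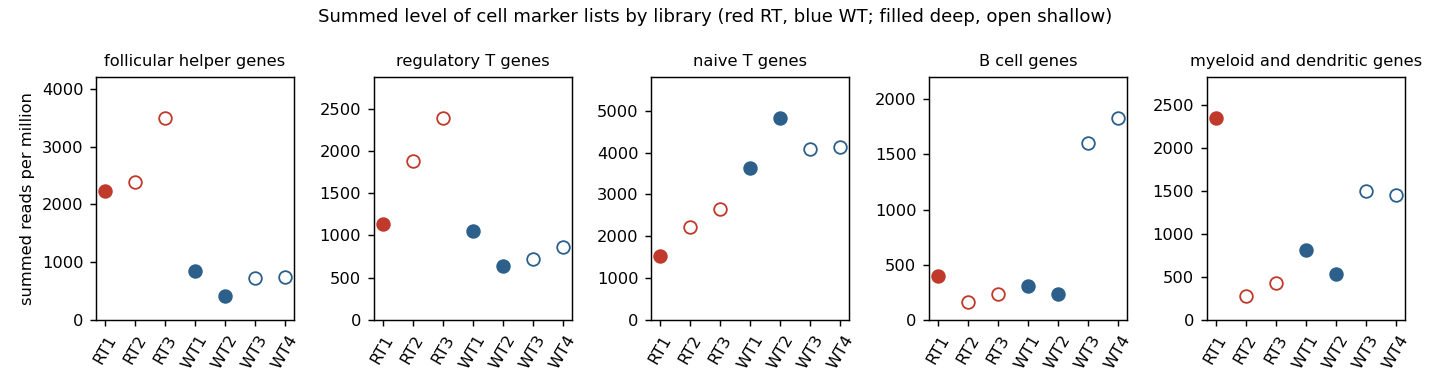
Summed RPM of 5 marker lists in RT1 to RT3 (red) and WT1 to WT4 (blue), filled for deep and open for shallow libraries. Follicular helper genes summed to 2239 to 3507 in RT and 414 to 848 in WT, and the myeloid and dendritic genes were highest in RT1.

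The balance of the CD73 and CD39 transcripts differed among the RT libraries. Nt5e over Entpd1, as a ratio of RPKM, was 5.24, 20.1 and 75.3 in RT1 to RT3, against 6.24, 4.58, 4.74 and 4.38 in WT1 to WT4. The WT ratios lay in a narrow range, the deep RT library lay inside it, and the 2 shallow RT libraries lay above it with only 2 and 1 Entpd1 reads.

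Cd38 encodes a surface enzyme that consumes NAD and makes ADP-ribose and cyclic ADP-ribose (ENSMUSG00000029084, chromosome 5, 43868553 to 43912375, plus strand). Its RPKM values were 14.7, 23.1 and 5.03 in RT1 to RT3, against 6.08, 1.77, 12.9 and 20.1 in WT1 to WT4. The groups overlapped widely, and the highest and second lowest of the 7 values were both RT. The means were 14.3 ± 9.06 RPKM in RT (SD, n = 3) and 10.2 ± 8.03 RPKM in WT (SD, n = 4). The reads were 1047 in RT1, against 369 in WT1 and 116 in WT2, and 8 and 2 in RT2 and RT3, against 5 and 8 in WT3 and WT4. The pooled ratio was 3.78 in the deep set (exact 95% interval 3.39 to 4.22), where WT1 and WT2 differed by 3.43 times, and 0.789 in the shallow set (0.310 to 1.95). The log2 fold change was 0.43 ± 0.71 in the RPKM test (SE, limma adjusted p = 0.821) and 2.01 ± 0.60 in the recovered-read test (SE, limma adjusted p = 0.0529), and neither called it. The deep libraries alone called Cd38 at 2.22 ± 0.52 (SE, limma adjusted p = 0.0258), and the shallow libraries alone gave -0.60 ± 0.63 (SE, limma adjusted p = 0.645). The joint fit called it without WT1 (2.81, limma adjusted p = 0.00317) and without WT2 (1.10, limma adjusted p = 0.0112), and gave -0.58 without RT1. The difference between the deep and shallow estimates was 2.75 ± 2.05 (SE, limma adjusted p = 0.817). CD38 is also a protein of plasma cells and myeloid cells. Their summed marker lists were higher in RT in the deep set and lower in RT in the shallow set. The plasma cell list of 6 genes summed to 639, 344 and 488 RPM in RT1 to RT3, against 268, 156, 1625 and 1733 in WT1 to WT4. Jchain, of antibody-secreting cells, stood at 58.6, 45.1 and 42.5 RPKM in RT, against 5.67, 6.39, 441 and 516 RPKM in WT. The other plasma cell genes tested did not all reverse. In the deep and the shallow libraries alone, the recovered-read log2 fold changes were 1.30 and -0.52 for Irf4. They were 0.62 and -0.05 for Xbp1 and 1.48 and 1.40 for Prdm1. The part of plasma and myeloid cells in the Cd38 values was not tested. The genes most like Cd38 among 833 were mt-Nd5 at r = 0.949, mt-Cytb at 0.898 and Prr13 at 0.871, the first 2 of which encode mitochondrial respiratory chain subunits.

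P2rx7 encodes the ATP-gated channel P2X7, which opens at high ATP and, on mouse T cells, also after ADP-ribosylation with NAD as donor (ENSMUSG00000029468, chromosome 5, 122643911 to 122691432, plus strand). Its RPKM values were 14.6, 11.1 and 24.8 in RT1 to RT3, against 12.4, 8.60, 11.3 and 15.2 in WT1 to WT4. RT3 was the highest library, and RT2 lay among the WT values. The reads were 1904 in RT1, against 1375 in WT1 and 1029 in WT2, and 7 and 18 in RT2 and RT3, against 8 and 11 in WT3 and WT4. The means were 16.8 ± 7.11 RPKM in RT (SD, n = 3) and 11.9 ± 2.71 RPKM in WT (SD, n = 4). The pooled ratio was 1.39 in the deep set (exact 95% interval 1.31 to 1.47) and 1.35 in the shallow set (0.714 to 2.59), and WT1 and WT2 differed by 1.44 times. The log2 fold change was 0.38 ± 0.34 in the RPKM test (SE, limma adjusted p = 0.655) and 0.48 ± 0.24 in the recovered-read test (SE, limma adjusted p = 0.211). Of the fits that leave out 1 library, the one without WT1 called it, at 0.75 (limma adjusted p = 0.0275). The 3 genes most like P2rx7 were Akna at r = 0.957, Ccni at 0.923 and Arf1 at 0.919.

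P2rx4 encodes P2X4, an ATP-gated channel of plasma membrane and lysosomes (ENSMUSG00000029470, chromosome 5, 122707544 to 122729738, plus strand), and it starts 16111 bases beyond the end of P2rx7 on the same strand. Its RPKM values were 12.1, 5.65 and 7.36 in RT1 to RT3, against 3.49, 4.56, 5.02 and 4.91 in WT1 to WT4. Every RT library lay above every WT library, but RT2 exceeded WT3 by less than 1 read is worth. The means were 8.37 ± 3.34 RPKM in RT (SD, n = 3) and 4.50 ± 0.70 RPKM in WT (SD, n = 4). The reads were 883 in RT1, against 217 in WT1 and 306 in WT2, and 2 and 3 in RT2 and RT3, against 2 each in WT3 and WT4. The pooled ratio was 2.96 in the deep set (exact 95% interval 2.65 to 3.30) and 1.28 in the shallow set (0.276 to 6.46). The RPKM test gave 0.75 ± 0.38 (SE, limma adjusted p = 0.456). With 9 reads over the shallow libraries, P2rx4 fell short of the 10 that the recovered-read test asks for. With genes of 10 or more reads over all libraries kept, P2rx4 was called higher in RT at 1.49 ± 0.23 (SE, limma adjusted p = 0.0103), where 6.08% of 13184 genes were. That call was lost without RT1 (0.29, limma adjusted p = 0.998) and held without each of the other 6 libraries, at 1.31 to 1.54.

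P2rx7 over P2rx4, as a ratio of RPKM, was 1.21, 1.96 and 3.37 in RT1 to RT3, against 3.55, 1.89, 2.24 and 3.09 in WT1 to WT4. In every library P2rx7 was the higher of the 2 channels, and their balance overlapped between the groups. The 5 other P2X genes listed were at or near 0, with at most 0.402 RPKM in any library, and 2 of the 5 had no read anywhere. Together those 5 genes summed to at most 2.94 RPM, in RT1.

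Adora2a encodes the main adenosine receptor of T cells (ENSMUSG00000020178, chromosome 10, 75316877 to 75334784, plus strand). Its RPKM values were 16.6, 15.4 and 26.8 in RT1 to RT3, against 10.7, 6.78, 5.49 and 8.06 in WT1 to WT4. Every RT library lay above every WT library. The means were 19.6 ± 6.28 RPKM in RT (SD, n = 3) and 7.76 ± 2.24 RPKM in WT (SD, n = 4). The reads were 1108 in RT1, against 610 in WT1 and 416 in WT2, and 5 and 10 in RT2 and RT3, against 2 and 3 in WT3 and WT4. In RPM, Adora2a stood at 98.7, 52.1 and 90.4 in RT, against 67.3, 39.2, 19.1 and 27.9 in WT. On that scale RT2 lay below WT1, so the groups overlapped, while within each set every RT library stayed above every WT library. P2rx4 behaved in the same way, at 78.7, 20.8 and 27.1 RPM in RT, against 23.9, 28.9, 19.1 and 18.6 in WT.

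The recovered-read test called Adora2a higher in RT, at 0.97 ± 0.26 (SE, limma adjusted p = 0.0383). The RPKM test gave 1.24 ± 0.34 (SE, limma adjusted p = 0.197, unadjusted p = 0.00794) and did not. The pooled ratio was 1.89 in the deep set (exact 95% interval 1.74 to 2.06) and 3.08 in the shallow set (1.06 to 10.8), and WT1 and WT2 differed by 1.58 times. In the recovered-read test the shallow libraries alone gave 1.42 ± 0.77 (SE, limma adjusted p = 0.305) and did not call it. The deep libraries alone gave 0.97. The call over the 7 libraries was lost without RT1 (1.43) and without RT2, RT3, WT3 or WT4, and it held at 0.59 without WT2. It was also lost, at limma adjusted p-values of 0.0592 to 0.194, with 10 or more reads over all libraries asked for, with limma-trend, with quality weights, without the library set term and with WT3 and WT4 summed. The estimate was above 0 in each of these fits. The genes most like Adora2a were Trp53inp1 at r = 0.994, Ddit4 at 0.988 and Lcp2 at 0.984, the last of which encodes SLP-76, an adaptor of T cell receptor signalling.

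Adora2a over P2rx7, the adenosine receptor against the ATP channel, was 1.13, 1.39 and 1.08 as a ratio of RPKM in RT1 to RT3. It was 0.865, 0.788, 0.487 and 0.532 in WT1 to WT4. Adora2a was thus the higher of the pair in the 3 RT libraries and the lower in the 4 WT libraries. In the shallow libraries that order rests on few reads and the intervals overlap. In RT2 they were 5.01 to 36.03 RPKM for Adora2a and 4.46 to 22.8 RPKM for P2rx7. The share of gene pairs whose ratio separates the groups was not counted, and Adora2a by itself also separated them in RPKM. Nt5e over Adora2a was 3.19, 4.41 and 4.13 in RT, against 2.98, 1.90, 6.51 and 3.21 in WT, which overlapped. The 3 other adenosine receptor genes had at most 1.65 RPKM in any library, in RT1 for Adora1, and none reached either test. The depth of the shallow libraries does not show low receptors, since 3 reads there equal 27.1 to 31.3 RPM.

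**Figure D3:**
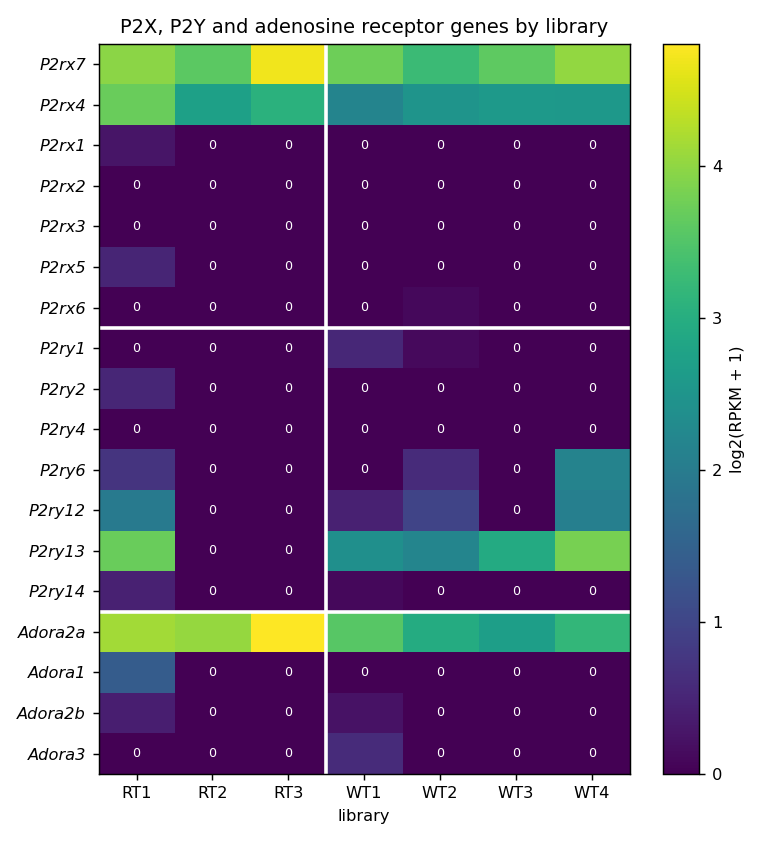
Level of P2X, P2Y and adenosine receptor genes as log2(RPKM + 1) by library, RT1 to RT3 left and WT1 to WT4 right of the white line; 0 marks a gene listed at 0. P2rx7, P2rx4 and Adora2a are above 0 in all 7 libraries, and P2ry13 is above 0 in RT1 and the 4 WT libraries.

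Dpp4 encodes CD26, a serine dipeptidyl peptidase of the T cell surface (ENSMUSG00000035000, chromosome 2, 62330073 to 62412231, minus strand). In RPKM, Dpp4 measured 2.40, 4.49 and 14.3 in RT1 to RT3, against 6.01, 5.52, 13.3 and 15.6 in WT1 to WT4. RT1 and RT2 were the lowest 2 libraries, and RT3 lay between the shallow WT libraries, so the groups overlapped. The means were 7.07 ± 6.36 RPKM in RT (SD, n = 3) and 10.1 ± 5.11 RPKM in WT (SD, n = 4). The reads were 331 in RT1, against 705 in WT1 and 699 in WT2, and 3 and 11 in RT2 and RT3, against 10 and 12 in WT3 and WT4. The pooled ratio was 0.413 in the deep set (exact 95% interval 0.365 to 0.466) and 0.653 in the shallow set (0.309 to 1.33). WT1 and WT2 differed by only 1.09 times, the smallest deep wild-type difference of the 7 genes.

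The recovered-read test called Dpp4 lower in RT, at -1.24 ± 0.20 (SE, limma adjusted p = 0.00491), the smallest adjusted p among the members. The RPKM test gave -0.85 ± 0.42 (SE, limma adjusted p = 0.444). Without RT1 the estimate was -0.76 and the call was lost, and without each of the other 6 libraries the call held. It was also lost with limma-trend (limma adjusted p = 0.244) and with quality weights for the libraries (limma adjusted p = 0.211). The deep libraries alone gave -1.27 ± 0.39 (SE, limma adjusted p = 0.0770) and the shallow libraries alone -0.77 ± 0.54 (SE, limma adjusted p = 0.455). The genes most like Dpp4 were Zdhhc18 at r = 0.974, Pak2 at 0.969 and Elf1 at 0.965.

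**Figure D4:**
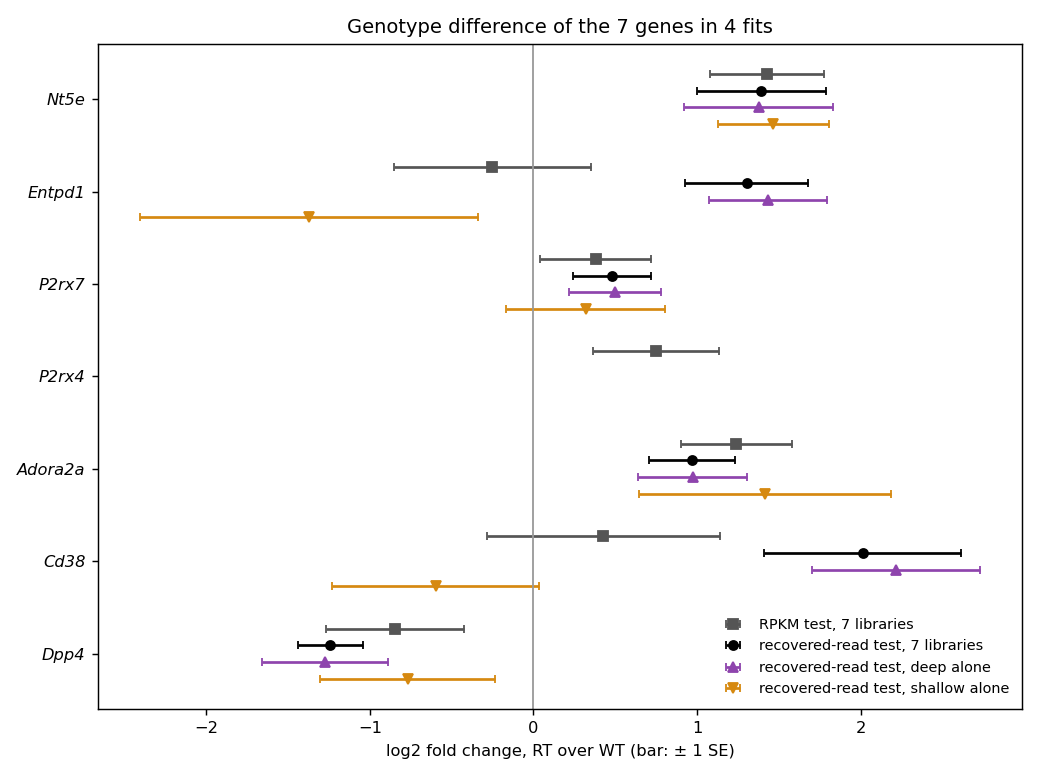
Log2 fold change, RT over WT, with 1 SE, for the 7 genes in the RPKM test, the recovered-read test on 7 libraries, and the recovered-read test in the deep or the shallow libraries alone; P2rx4 has too few shallow reads for the other 3. Nt5e, P2rx7 and Adora2a lie above 0 and Dpp4 below 0 in all fits shown, while Entpd1 and Cd38 lie on opposite sides of 0 in the deep and the shallow libraries.

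The genes around these members were read from 9 lists of 76 genes, of which 31 had enough reads for the recovered-read test. It called 4 of them higher (12.9%) and 2 lower (6.45%), near the 9.54% and 7.87% of all genes, and the RPKM test called 0 of 46. The 8 other ecto-enzymes of nucleotides had 2 genes tested and 0 called. Enpp1, which cleaves ATP to AMP and pyrophosphate, had the smaller p, and stood at 1.55, 1.84 and 0.801 RPKM in RT, against 1.36, 1.11, 3.28 and 3.21 RPKM in WT. Of the 7 P2Y receptors, P2ry13, a receptor for ADP, was the only one with enough signal for the RPKM test. It stood at 11.99 RPKM in RT1 and was listed at 0 in RT2 and RT3, against 4.26, 3.53, 6.65 and 13.01 RPKM in WT.

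Of 9 genes of ATP release and adenosine transport and breakdown, 5 were tested and 1 was lower. This was Slc28a2, a sodium-coupled transporter of adenosine and other purine nucleosides, at 11.3, 31.5 and 23.4 RPKM in RT, against 15.3, 16.5, 63.9 and 76.2 RPKM in WT (log2 fold change -0.63 ± 0.18, SE, limma adjusted p = 0.0443). In both sets the RT libraries lay below the WT libraries. Its call was lost without RT1, RT2, RT3, WT3 or WT4, with a log2 fold change of -1.39 without RT1.

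The cAMP list, which lies downstream of Adora2a, had 12 of 18 genes tested, with 1 higher and 1 lower. Pde3b, a phosphodiesterase that breaks down cAMP, was lower in RT at 4.89, 8.22 and 4.77 RPKM, against 9.18, 13.3, 4.87 and 14.3 RPKM in WT (log2 fold change -1.16 ± 0.22, SE, limma adjusted p = 0.00937). Prkar1a, a regulatory subunit of protein kinase A, was higher in RT at 61.9, 153 and 202 RPKM, against 47.4, 45.9, 83.7 and 110 RPKM in WT (log2 fold change 0.51 ± 0.15, SE, limma adjusted p = 0.0489). Both calls were lost without RT1, where Pde3b stood at -0.46 and Prkar1a at 0.83, and that of Prkar1a also without RT2, RT3, WT3 or WT4. The median over the 12 tested genes was -0.09 on the log2 scale, against -0.02 over all genes.

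Of 10 genes of NAD metabolism, 3 were tested and Nampt, the rate-limiting enzyme of NAD salvage, was higher. It stood at 7.25, 11.2 and 16.3 RPKM in RT, against 3.78, 4.34, 6.65 and 9.76 RPKM in WT (log2 fold change 0.81 ± 0.16, SE, limma adjusted p = 0.0112). Within each set every RT library exceeded every WT library, and the call was lost without RT1 (0.67).

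The list of DPP4 relatives and substrates had 4 of 8 genes tested and 1 higher, Cxcl10, a chemokine that DPP4 truncates. It stood at 4.08, 106 and 133 RPKM in RT, against 2.04, 0.776, 5.23 and 5.11 RPKM in WT (log2 fold change 1.97 ± 0.45, SE, limma adjusted p = 0.0203). The shallow RT libraries were far above every other library, and the estimate was 3.94 without RT1. The call was lost without RT1 or WT2.

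Of 8 genes of the inflammasome and P2X7 outputs, 5 were tested and Casp1, the protease that matures interleukin-1 beta, was higher. It stood at 37.4, 196 and 132 RPKM in RT, against 20.9, 12.1, 56.2 and 65.9 RPKM in WT (log2 fold change 1.23 ± 0.28, SE, limma adjusted p = 0.0217). The RT libraries lay above the WT libraries of their own set, and the call was lost without RT1 (1.30) or WT3. Casp1 is also a gene of myeloid cells, whose marker list was highest in RT1 and lowest in RT2 and RT3, and the part of those cells was not tested.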

How the data were processed

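Splenic CD4+ cells were sorted by flow cytometry and total RNA was made into libraries with an Illumina TruSeq v2 kit, per the labels' protocols. The authors deposited RPKM values for 19589 genes in 7 columns. Per the submitters' processing notes, reads were placed on mm10. No aligner, counter or annotation is named in the labels or the file header. GENCODE M21 gave the coordinates, with 19432 symbols found.

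RPKM times gene length and library total gives whole reads where whole reads were counted. With GENCODE exon lengths, 78.9% to 83.8% of values under 100 reads came out whole within 0.01 reads. With lengths left free (tolerance 0.003 reads), 13011 of the 13859 genes above 0 gave whole reads with a single length and 842 with a length for each library set; 6 gave none. Sums of recovered reads, the library sizes, were 11223453 in RT1, 9063735 in WT1, 10605130 in WT2 and 95965 to 110636 in the shallow libraries, where 3 reads equal 27.1 to 31.3 RPM (reads divided by that sum).

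The RPKM test was limma 3.58.1 in R 4.3.3 (trended prior) on log2(RPKM + 1), a scale that understates changes of low genes, over genes reaching 1 RPKM in 3 or more libraries. The recovered-read test was limma voom over genes with at least 10 reads in the shallow libraries together. Both had terms for genotype and library set, were two-sided and were adjusted by Benjamini-Hochberg over all genes kept, with a threshold of 0.05. Where 1 deep RT library is fitted against 2 WT libraries, it is assumed to vary like them. Scripts were tested on simulated data. Intervals of read ratios are exact and conditional on the total.

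The members, lists and tests were chosen with earlier results of these data known. Named are the 7 members, up to 3 called genes of each pathway list (or the gene with the smallest p), leading genes of the cell marker lists, and the 3 genes with 100 or more shallow reads most like each member by Pearson r. Other genes (Foxp3, Il2ra, Cd68, Adgre1, Flt3, Siglech, Cd14, Art2b) were added after their values were seen. Alternatives were other pseudocounts, filters, scalings, weights and library choices. No protein sequences were used here.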

Additional observations from a re-analysis of the deposited data

How the results depend on the processing

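Counts of genes called moved widely with the processing. Over all genes the RPKM test called 21 higher and 5 lower. It called 4 higher and 1 lower without the library set term, 4 and 0 with a pseudocount of 0.1, 5 and 38 in the shallow libraries alone, and 0 and 0 with no filter, with the replicate block, in the deep libraries alone, with WT3 and WT4 averaged or with array weights. Leaving out 1 library in turn gave 0 to 168 higher and 0 to 278 lower. Where a limma count was 0, 322 to 920 genes higher and 136 to 590 lower had an unadjusted p under 0.05. The recovered-read test called 560 higher and 462 lower. It called 107 and 68 with limma-trend, 128 and 102 with quality weights, 302 and 199 without the set term, 329 and 159 in the deep libraries alone and 195 and 271 in the shallow ones, and 0 to 791 and 0 to 715 without 1 library. Summing WT3 and WT4 gave 395 and 316.

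Among the members, the direction of Nt5e, P2rx7, P2rx4, Adora2a and Dpp4 held in every alternative that was run for them. Entpd1 reversed. In the RPKM test it stood at 1.20 in the deep libraries alone and at -1.22 to 0.20 without 1 library, and in the recovered-read test at -0.24 with limma-trend, -1.37 in the shallow libraries alone and -1.34 to 1.74 without 1 library. Cd38 reversed in the RPKM test with the replicate block (-0.026), in the shallow libraries alone (-0.50) and without 1 library (-0.50 to 1.16), and in the recovered-read test in the shallow libraries (-0.60) and without 1 library (-0.58 to 2.81). The cause was not tested.

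The labels do not say that replicate numbers pair the samples. Deviations from the group means over 9605 genes correlated at 0.432 for RT1 and WT1, -0.179 for RT2 and WT2 and 0.184 for RT3 and WT3. RT1 and WT1 are both deep, RT3 and WT3 both shallow and RT2 and WT2 of different sets, so these values also carry depth and do not show whether the numbers pair samples. With the replicate block the recovered-read test called 575 higher and 496 lower, with Nt5e at 0.79 (limma adjusted p = 0.0391), Adora2a at 0.58 (0.0812) and Cd38 at 1.15 (0.0203).

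The depth of the shallow libraries limits every member, Nt5e the least, and the deep set holds a single RT mouse. For Nt5e the counting intervals of RT2 (48.4 to 93.1 RPKM) and WT3 (22.6 to 53.6 RPKM) still overlapped. Fits without 1 library for P2rx4 were added after the data were seen.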
